A study of Saccharomyces cerevisiae x Saccharomyces paradoxus and Saccharomyces cerevisiae and Saccharomyces paradoxus with 40 samples.

Results

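The difference between Saccharomyces paradoxus and Saccharomyces cerevisiae was described at M1M2, the stage of sporulation at which the end of meiosis I overlaps the start of meiosis II. The members were all rows of the deposited count table that name a gene, compared between 3 S. paradoxus and 3 S. cerevisiae libraries, which are 6 of the 40 libraries of the study. Of 3217 genes, 124 had no count in any of the 12 libraries of at least 1 species and were set apart, which left 3093. All but 4 of the 3062 open reading frame names in the table end in W, so the genes of the other strand were not analysed here. The study followed sporulating cultures of both species and of their hybrid, at T0 (the move into sporulation medium), M1 (the start of meiosis I), M1M2 and M2 (the end of meiosis II). The hybrid replicates come from both directions of the cross, with MATa from either species. All cultures grew for 15 h at 30 °C in rich YPD medium with dextrose and were then moved, at the same temperature, to SPO medium, which holds 1% potassium acetate with yeast extract and little dextrose. The sources used here give no strain names and no genotype beyond the species and the hybrid's mating types. The design text calls the 3 cultures of each species biological replicates. The RNA came from whole cultures, so fewer cells at a stage and less RNA per cell cannot be told apart.

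Sporulation is the program by which starved diploid yeast goes through meiosis and packs the products into spores. Early genes pair and recombine the chromosomes, and the transcription factor Ndt80 then turns on the middle genes, which drive the meiotic divisions, grow the prospore membrane around each nucleus and build the spore wall. Ndt80 binds the middle sporulation element in front of its targets, a site that the repressor Sum1 also recognises. During sporulation on acetate the cells use carbon through respiration and the glyoxylate cycle.

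The promoters of 6 genes are shown because they carry the element and because these genes recur in the results. They are NDT80 and 5 genes of the divisions, the prospore membrane and the spore wall. Each sequence is a stretch of 150 bases of the R64 genome of S. cerevisiae from RefSeq, read on the plus strand, and capitals mark the match to GNCACAAA or GNCGCAAA on either strand nearest to the annotated coding start. The build used for the deposited counts is not given in the sources used here, so the coordinates are those of R64 alone.
NDT80, chrVIII:356354-356503, plus strand, match ends 78 bases before the coding start: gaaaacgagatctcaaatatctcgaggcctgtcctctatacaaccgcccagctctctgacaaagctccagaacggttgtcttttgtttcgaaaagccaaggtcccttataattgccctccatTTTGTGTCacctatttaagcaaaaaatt
SMK1, chrXVI:666079-666228, plus strand, match ends 72 bases before the coding start: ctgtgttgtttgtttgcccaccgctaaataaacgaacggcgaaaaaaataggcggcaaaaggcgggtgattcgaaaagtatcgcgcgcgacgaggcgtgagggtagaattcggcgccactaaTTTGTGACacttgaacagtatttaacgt
SPO21, chrXV:145094-145243, plus strand, match ends 111 bases before the coding start: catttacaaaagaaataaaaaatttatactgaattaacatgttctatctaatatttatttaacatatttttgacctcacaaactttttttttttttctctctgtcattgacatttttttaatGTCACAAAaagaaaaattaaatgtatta
SPO19, chrXVI:304101-304250, plus strand, match ends 157 bases before the coding start: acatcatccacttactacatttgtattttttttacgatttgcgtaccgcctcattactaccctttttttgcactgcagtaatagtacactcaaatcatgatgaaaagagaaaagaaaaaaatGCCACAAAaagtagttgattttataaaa
GAS4, chrXV:71067-71216, plus strand, match ends 104 bases before the coding start: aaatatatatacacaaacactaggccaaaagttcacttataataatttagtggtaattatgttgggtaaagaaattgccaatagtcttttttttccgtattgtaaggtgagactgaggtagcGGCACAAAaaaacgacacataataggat
SPS22, chrIII:41942-42091, plus strand, match ends 94 bases before the coding start: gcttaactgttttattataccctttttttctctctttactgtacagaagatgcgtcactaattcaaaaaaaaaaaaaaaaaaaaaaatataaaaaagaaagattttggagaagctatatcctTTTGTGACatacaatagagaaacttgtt
The 300 bases before the coding start hold such a match in 434 of 6001 protein-coding genes of R64, or 7.23%. NDT80 holds 2 matches in that window and the other 5 genes 1 each.

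A single S. cerevisiae library stands apart from the rest of its group. Replicate 2 at M1M2 held 23453 counts in genes, against 2527046 and 1322563 in replicates 1 and 3 and 1623624, 1583172 and 838198 in the S. paradoxus libraries. A single count in it was worth 79.8 CPM (counts scaled to a common library size with TMM factors), against 0.334 to 0.931 CPM in the other 5 libraries, and 1842 genes had any count. The labels list 2 indexes for S. cerevisiae replicate 3 and 1 for each of the others. The Spearman correlation of S. cerevisiae replicate 2 with each of the other 5 libraries over the genes was 0.477 to 0.543. S. cerevisiae replicates 1 and 3 correlated at 0.800 and the S. paradoxus pairs at 0.810 to 0.872. Calls at M1M2 are therefore given with and without S. cerevisiae replicate 2, which is called the shallow library here. Levels below are CPM at M1M2, with libraries in the order of replicates 1, 2 and 3, so that the middle S. cerevisiae value is always that of the shallow library.

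With all 6 libraries, 83 of 3050 genes tested differed between the species at an adjusted p under 0.05 (2.72% of genes), 10 higher in S. paradoxus (0.328%) and 73 lower (2.39%). An unadjusted p under 0.05 was reached by 351 genes. The CPM values of the species did not overlap in 59 of the 83, against 625 of all 3050 genes (20.5%). In 66 of the 73 lower genes the shallow library was the highest of the 3 S. cerevisiae libraries, and in 46 of them it was more than 5 times as high as either of the other libraries. The same shares over all genes are not given here, and these genes were called with that library in the fit. The counts are therefore not read as a trait of the called genes. The fit without the shallow library rests on S. cerevisiae replicates 1 and 3 alone at M1M2. Without it 35 of 3059 genes passed (1.14%), and the split turned round, with 24 higher in S. paradoxus (0.785%) and 11 lower (0.360%). Of the 83 genes 19 also passed without it, 9 higher and 10 lower. The total was 106 without S. cerevisiae replicate 1, 116 without replicate 3, and 9, 32 and 15 without S. paradoxus replicates 1, 2 and 3. When the 5 libraries of the study under 500000 counts were all left out, 70 of 3061 genes passed (2.29%). At the other stages the species differed in 131 genes at T0 (4.30%), 92 higher (3.02%) and 39 lower (1.28%), in 46 at M1 (1.51%), 23 in each direction (0.754%), and in 34 at M2 (1.11%), 19 higher (0.623%) and 15 lower (0.492%).

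**Figure D1:**
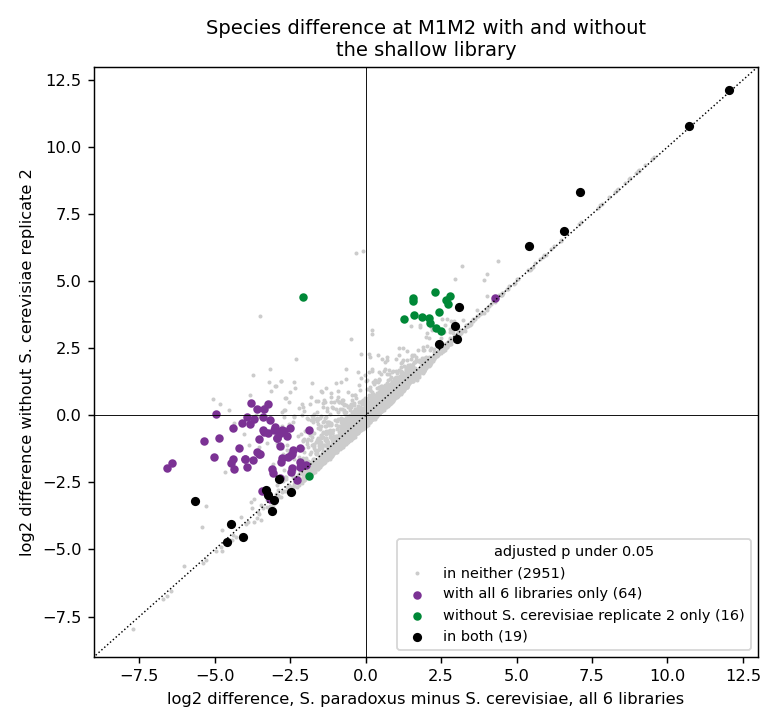
Each point is a gene, placed by its log2 difference between S. paradoxus and S. cerevisiae at M1M2 with all 6 libraries (x axis) and without the shallow S. cerevisiae library (y axis), and coloured by the fit in which its adjusted p was under 0.05. Most of the 19 genes that passed in both lie near the dotted line of equal values, with TEF4 and YFL012W farther from it, and most genes that passed only with all 6 lie above it, nearer to 0 on the y axis.

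Of the 24 genes higher in S. paradoxus without the shallow library, 10 belong to the lists of middle meiosis, the prospore membrane and the spore wall. These lists hold 14, 9 and 15 of the 3059 genes tested in that fit, and were written with earlier results of these data known. In the list of middle meiosis regulators and segregation genes, all 14 members had a positive log2 difference without the shallow library, with a median of 1.69, against a median of -0.01 over all genes tested. Of these, 2 passed without the shallow library (NDT80 and SMK1) and none with it, where the median was 1.5. In mean log2 CPM of the list, the S. cerevisiae libraries at M1M2 were at 5.84, 7.23 and 7.23 and the S. paradoxus libraries at 8.41, 8.08 and 9.43, so that the groups did not overlap. At M2 the S. cerevisiae libraries reached 10.18, 9.95 and 10.08, above every S. paradoxus library at M1M2. The list's median difference was 0.18 at T0, 0.33 at M1 and 0.11 at M2.

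NDT80 encodes the activator of the middle genes itself. Its level was 90.6, 2313 and 272 CPM in S. cerevisiae and 1954, 1204 and 3836 CPM in S. paradoxus. The shallow library, with 29 NDT80 counts, lay within the S. paradoxus values, and the other S. cerevisiae libraries lay below all of them. The log2 difference was 1.61 ± 0.691 (SE, adjusted p = 0.273) with the shallow library and 3.73 ± 0.714 (adjusted p = 0.00221) without it, and the adjusted p ran from 0.00103 to 0.834 over the 15 alternatives. NDT80 passed in 2 of these, both of them fits without the shallow library. SMK1, the mitogen-activated protein kinase that guides assembly of the spore wall, was at 15.7, 479 and 32.5 CPM in S. cerevisiae and 343, 238 and 956 CPM in S. paradoxus. Here too only the shallow library, on 6 counts, reached into the S. paradoxus range. The difference of SMK1 was 2.81 ± 1.12 (adjusted p = 0.209) with the shallow library and 4.46 ± 1.05 (adjusted p = 0.0124) without it, with 0.0124 to 0.775 over the alternatives. SMK1 passed in the same 2 alternatives as NDT80.

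The B-type cyclins of the meiotic divisions did not pass. CLB1 was at 37.8, 718 and 62.3 CPM in S. cerevisiae and 326, 154 and 961 CPM in S. paradoxus, a difference of 1.49 ± 0.976 (adjusted p = 0.664) with the shallow library and 3.31 ± 0.958 (adjusted p = 0.0708) without it. CLB3 was at 213, 558 and 355 CPM and 502, 373 and 1156 CPM, a difference of 0.96 ± 0.663 (adjusted p = 0.719) with and 1.3 ± 0.701 (adjusted p = 0.741) without the shallow library. AMA1, the activator of the anaphase-promoting complex used in meiosis, was at 622, 1675 and 1929 CPM in S. cerevisiae and 1254, 1189.6 and 2479.7 CPM in S. paradoxus, and the groups overlapped (adjusted p = 0.990 with and 0.992 without the shallow library). Over their alternatives the adjusted p ran from 0.0131 to 0.999 for CLB1, 0.413 to 1.00 for CLB3 and 0.875 to 1.00 for AMA1. The 1 alternative in which CLB1 passed left out every library of the study under 500000 counts.

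Among 9 prospore membrane genes the median difference was 1.56 with the shallow library and 2.50 without it. With it SPO20 passed, and without it SPO19 and SPO21 passed as well. SPO20 encodes the SNARE protein, of the SNAP-25 family, that fuses vesicles into the prospore membrane. It was at 39.77, 479 and 99.5 CPM in S. cerevisiae and 879, 549 and 1907 CPM in S. paradoxus, and all 3 S. cerevisiae values lay below all S. paradoxus values. SPO20 was higher in S. paradoxus by 3.09 ± 0.858 on the log2 scale (adjusted p = 0.0338), and by 4.05 ± 0.874 without the shallow library (adjusted p = 0.00751). It passed in 7 of 15 alternatives, with adjusted p from 0.00185 to 0.236, and lost the call without S. cerevisiae replicate 1 or 3 and without S. paradoxus replicate 1 or 3.

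SPO21 and SPO19 were picked for description after their values were seen. SPO21 encodes a part of the meiotic outer plaque of the spindle pole body, on which the prospore membrane starts. It was at 75.2, 1356 and 180.1 CPM in S. cerevisiae and 1352, 616 and 2732 CPM in S. paradoxus. The shallow library lay within the S. paradoxus range and the other S. cerevisiae libraries below it, and the difference was 1.88 ± 0.853 (adjusted p = 0.326) with and 3.67 ± 0.898 (adjusted p = 0.0184) without that library. SPO19, a prospore membrane protein, was at 75.5, 2233 and 225 CPM in S. cerevisiae and 1745, 991 and 7788 CPM in S. paradoxus. Replicate 3 of S. paradoxus held the highest value, and the difference was 2.31 ± 0.844 (adjusted p = 0.146) with and 4.60 ± 0.923 (adjusted p = 0.00418) without the shallow library. Their adjusted p ran from 0.00583 to 0.877 and from 0.00103 to 0.921 over the alternatives. Each passed in 2 of 15 alternatives, both of them without the shallow library.

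The spore wall list held 15 genes tested, with a median difference of 1.27 with the shallow library and 2.39 without it. GAS4 was higher and AQY1 lower in S. paradoxus in both fits, and SPS22, CDA1, CDA2 and DTR1 passed as higher only without the shallow library. GAS4 encodes a glucanosyltransferase that lengthens the glucan of the spore wall. It was at 89.6, 399 and 256 CPM in S. cerevisiae and 953, 425 and 3674 CPM in S. paradoxus, and the groups did not overlap. The difference was 2.97 ± 0.777 (adjusted p = 0.0226) with and 3.34 ± 0.837 (adjusted p = 0.0225) without the shallow library. It passed in 10 of 15 alternatives (adjusted p 0.00333 to 0.450) and lost the call without S. cerevisiae replicate 1 or S. paradoxus replicate 3.

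SPS22, which helps to organise the glucan layer, was at 59.5, 2074 and 208 CPM in S. cerevisiae and 917, 473 and 3289.8 CPM in S. paradoxus. The shallow library lay inside the S. paradoxus range, and the difference was 1.27 ± 0.817 (adjusted p = 0.650) with and 3.60 ± 0.850 (adjusted p = 0.0125) without it, with 0.00325 to 0.999 over the alternatives. CDA2, CDA1 and DTR1 were chosen after their values were seen. CDA2, a chitin deacetylase that makes the chitosan layer, was at 58.8, 957 and 166 CPM in S. cerevisiae and 1119.7, 635 and 4009 CPM in S. paradoxus. Its difference was 2.72 ± 0.941 (adjusted p = 0.111) with and 4.15 ± 1.01 (adjusted p = 0.0170) without the shallow library, with 0.00802 to 0.697 over the alternatives. That of CDA1, the other chitin deacetylase, was 2.32 ± 0.812 (adjusted p = 0.117) with and 3.26 ± 0.830 (adjusted p = 0.0272) without it. DTR1, the transporter of the dityrosine precursor of the outermost layer, differed by 2.13 ± 0.919 (adjusted p = 0.273) with and 3.45 ± 0.942 (adjusted p = 0.0466) without it. DIT1, which makes that precursor late in sporulation, stayed low in both species, at 21.7, 79.8 and 1.35 CPM in S. cerevisiae and 0.948, 23.8 and 45.6 CPM in S. paradoxus, and did not pass (adjusted p = 0.964 with and 0.992 without the shallow library). SPS22, CDA2 and DTR1 each passed in 2 of 15 alternatives, both of them without the shallow library, and CDA1 passed in 3.

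AQY1 was the only lower call of the spore wall list, in which 5 of 15 members had a negative difference with and 3 without the shallow library. It encodes the water channel of spores. Its level was 2103, 2712 and 571 CPM in S. cerevisiae and 75.8, 139 and 24.2 CPM in S. paradoxus, and every S. cerevisiae library lay above every S. paradoxus library. The log2 difference was -4.46 ± 0.922 (adjusted p = 0.00347) with the shallow library and -4.05 ± 0.918 (adjusted p = 0.0104) without it. It passed in 12 of 15 alternatives (adjusted p 4.30e-05 to 0.0869) and lost the call without S. paradoxus replicate 1 or 3. The same direction was measured at T0 (-3.04), M1 (-2.99) and M2 (-3.66), and at T0 and M2 the adjusted p was 0.0257 and 0.0280.

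**Figure D2:**
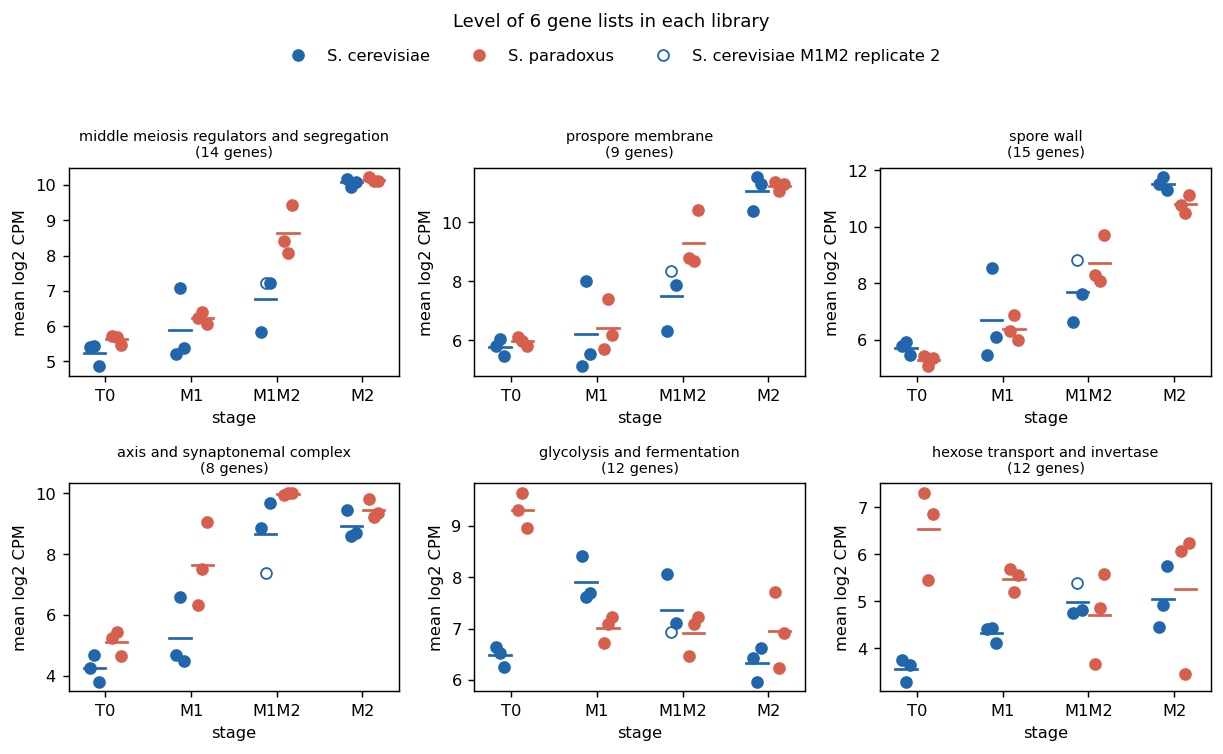
Mean log2 CPM of the members of 6 gene lists in each parental library, by stage and species, with a short line at each group's mean and the shallow S. cerevisiae library as an open circle. At M1M2 every S. paradoxus library lies above every S. cerevisiae library in the middle meiosis, prospore membrane, and axis and synaptonemal complex lists. In the spore wall list the open circle lies among the S. paradoxus points at that stage. At T0 the glycolysis and hexose transport lists are higher in S. paradoxus.

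In 21 of the 24 genes higher in S. paradoxus without the shallow library, that library held a higher CPM than both other S. cerevisiae libraries. These 24 genes were called with the shallow library left out, and a single count in it was worth 79.8 CPM. The same share over all genes is not given here, so the 21 are not read as a trait of the called genes. The element shown above in capitals was present in the promoters of 13 of the 24 (54.2%) and of 0 of the 11 lower genes, against 174 of the 2722 tested genes with an R64 promoter (6.39%). Among the genes called with all 6 libraries it was present in 2 of 10 higher genes and in 6 of the 70 lower genes with an R64 promoter. Over the 174 genes with a match the median difference was 0.17 with and 0.45 without the shallow library. Over the 2548 genes without one it was -0.03 and -0.05. URS1 (AGCCGCCNA on either strand), an element of early meiotic genes, is present in 1.58% of R64 promoters, and the 45 tested genes that hold it had medians of 0.0026 and -0.13. The promoters are those of S. cerevisiae only, and a match shows the letters, not binding.

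Among the remaining genes with a match and a call without the shallow library were SPO23, HIM1, YFL012W and YDL186W, named after their values were seen. SPO23 encodes a protein that binds the sporulation phospholipase Spo1, and it was at 67.5, 798 and 75.1 CPM in S. cerevisiae and 1186, 902 and 2048 CPM in S. paradoxus. Without the shallow library its difference was 4.31 ± 0.929 (adjusted p = 0.00751, 0.00161 to 0.467 over the alternatives), and with it 2.67 ± 0.897 (adjusted p = 0.0977). YFL012W passed in both fits, at 7.11 ± 1.77 (adjusted p = 0.0137) and 8.34 ± 1.58 (adjusted p = 0.00221), from 0.668, 159.5 and 2.03 CPM in S. cerevisiae and 241, 58.5 and 903 CPM in S. paradoxus. Its 160 CPM in the shallow library rest on 2 counts. The call of YFL012W was lost without S. cerevisiae replicate 1 or 3 and without S. paradoxus replicate 3 (adjusted p 0.00103 to 0.197 over the alternatives).

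**Figure D3:**
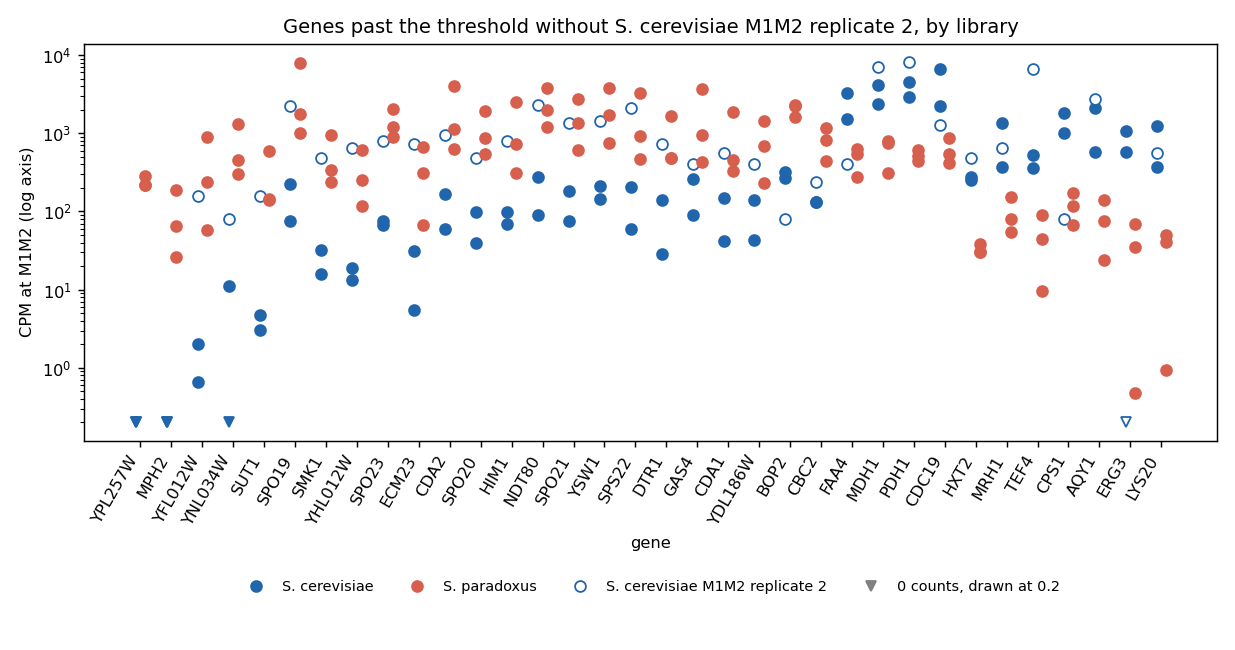
CPM of 34 of the 35 genes that passed without the shallow library, in each of the 6 M1M2 libraries (log axis, ordered by log2 difference, 0 counts drawn at 0.2). The open circle of the shallow library lies well above the other S. cerevisiae points in most genes from SPO19 to YDL186W, and all S. cerevisiae points are at 0 for YPL257W and MPH2.

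The difference at M1M2 was also set against the mean of the differences at T0, M1 and M2 in a contrast. A gene can pass this contrast through its difference at another stage, so a pass does not show a difference that belongs to M1M2. With all libraries 31 of 3050 genes passed (1.02%), and all 31 were relatively lower in S. paradoxus at M1M2. Without the shallow library 32 of 3059 passed (1.05%), 21 higher (0.686%) and 11 lower (0.360%), and 10 of the 31 were among them. In the fit without the shallow library, the species difference of NDT80 at M1M2 exceeded its mean at the other stages by 3.81 on the log2 scale (adjusted p = 0.00394), SMK1 by 5.22 (adjusted p = 0.00703), SPS22 by 3.66 (adjusted p = 0.0280), SPO20 by 3.53 (adjusted p = 0.0305) and GAS4 by 3.53 (adjusted p = 0.0305). With the shallow library none of these 5 passed, with adjusted p from 0.0547 for GAS4 to 0.858 for SPS22. AQY1 did not pass in either fit (adjusted p = 0.887 with the shallow library).

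Genes of entry, pairing and recombination gave no call in either fit. The 8 genes of the chromosome axis and synaptonemal complex had a median difference of 0.76 with and 0.44 without the shallow library, against 1.4 at T0 and 2.59 at M1. In mean log2 CPM at M1M2 this list was at 8.88, 7.39 and 9.68 in S. cerevisiae. In S. paradoxus it was at 9.96, 10.03 and 10.0, with no overlap. The 11 recombination genes had medians of -0.04 and -0.32, and the 8 genes of meiotic entry -0.08 and -0.21. IME2, the kinase that drives entry into meiosis, was at 2250.0, 5104 and 8198 CPM in S. cerevisiae and 8109, 8286 and 10070.0 CPM in S. paradoxus, and replicate 3 of S. cerevisiae lay within the S. paradoxus range (adjusted p = 0.821 with and 0.951 without the shallow library, 0.606 to 1.00 over the alternatives). HOP1, a protein of the chromosome axis, was at 1815, 319 and 4038 CPM and 2787, 2569.9 and 2512 CPM, and the S. cerevisiae values spread to both sides of the S. paradoxus ones (adjusted p = 0.978 with and 1.00 without, 0.802 to 1.00). DMC1, the meiotic strand exchange protein, was at 5051, 36050.0 and 5434 CPM and 5359, 4884 and 3773 CPM, with the shallow library alone far above the others (adjusted p = 0.265 with and 1.00 without, 0.12 to 1.00).

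Markers of cells outside meiosis held no call, but the haploid and mating list did not overlap between the species. None of the 12 genes of the mitotic G1 list and none of the 18 haploid and mating genes passed in either fit. The G1 list had a median of -0.79 with and -1.02 without the shallow library, and the mating list 0.49 and 0.89. At M1M2 the mating list's mean log2 CPM was 5.07, 3.54 and 5.15 in S. cerevisiae and 6.26, 6.11 and 6.50 in S. paradoxus. It was higher in every S. paradoxus library. At M1 it was already apart, at 4.1, 4.17 and 4.13 in S. cerevisiae and 5.29, 5.23 and 5.71 in S. paradoxus. The middle meiosis list overlapped at M1. Other list levels without overlap at M1M2 were higher in S. paradoxus for middle meiosis, the prospore membrane and the chromosome axis. They were lower for the tricarboxylic acid cycle, acetate use and core histones. CLB2 and CLN1 were chosen after their values were seen. They belong to a wider set of markers of cells outside meiosis, and the other markers of that set are not described singly here. In the G1 list 8 of 12 members had a negative difference and 4 a positive one, in each fit. CLB2, the mitotic cyclin, was at 13.4, 0 and 30.5 CPM in S. cerevisiae and 55.9, 49.4 and 26.1 CPM in S. paradoxus, and CLN1, a G1 cyclin, at 81.6, 0 and 3.38 CPM and 0.948, 25.2 and 38.2 CPM. The part of such cells in the differences at M1M2 was not tested.

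**Figure D4:**
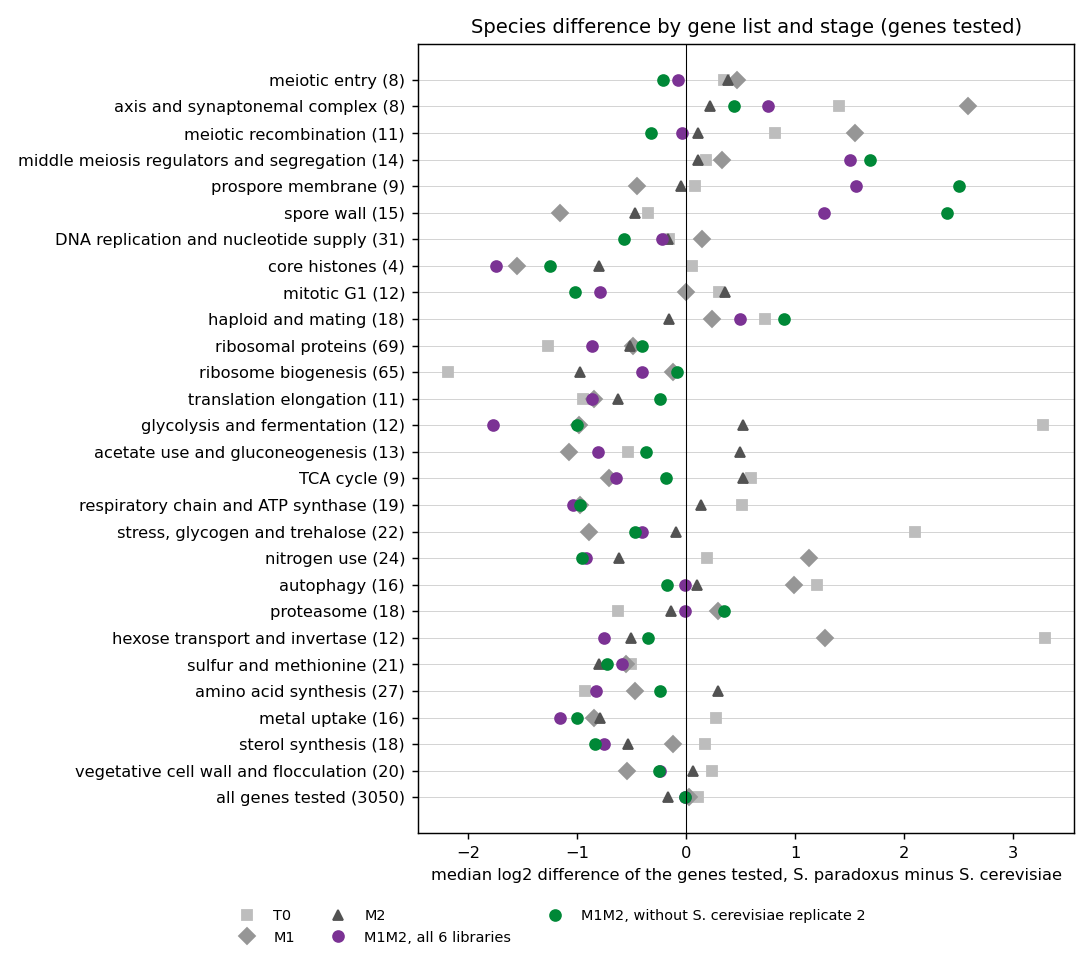
Median log2 difference, S. paradoxus minus S. cerevisiae, of the tested genes of each list (number in brackets) at T0, M1 and M2 and at M1M2 with and without the shallow library. At M1M2 the middle meiosis, prospore membrane and spore wall lists have the highest medians, from 1.27 to 2.50, and glycolysis moves from 3.28 at T0 to below 0.

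Glycolytic genes had a negative median difference at M1M2 and a positive one at T0. The 12 genes of the glycolysis and fermentation list had a median difference of -1.78 with and -1.0 without the shallow library at M1M2, and of 3.28 at T0. In mean log2 CPM at M1M2 the list was at 8.07, 6.93 and 7.12 in S. cerevisiae. It was at 6.46, 7.08 and 7.22 in S. paradoxus, so the groups overlapped. CDC19 and ENO1 passed as lower with all libraries, and CDC19 without the shallow library. CDC19, pyruvate kinase, was at 6627, 1276 and 2252 CPM in S. cerevisiae and 544, 877 and 421 CPM in S. paradoxus, with no overlap. The difference was -2.48 ± 0.707 (adjusted p = 0.0404) with and -2.84 ± 0.730 (adjusted p = 0.0282) without the shallow library. It passed in 6 of 15 alternatives (0.00952 to 0.339) and was lost without S. cerevisiae replicate 1 and without any single S. paradoxus replicate. At T0 its difference was 3.27 (adjusted p = 0.00288), and the contrast of M1M2 against the other stages was -3.62 ± 0.816 (adjusted p = 0.0122), or -3.89 without the shallow library (adjusted p = 0.00620).

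ENO1 encodes an enolase with a near-identical copy in ENO2, so its reads may be shared with that gene. It was at 4735, 2393 and 2149 CPM in S. cerevisiae and 719.8, 889 and 318 CPM in S. paradoxus, and the groups did not overlap. The difference at M1M2 was -2.28 ± 0.666 (adjusted p = 0.0437) with and -2.41 ± 0.689 (adjusted p = 0.0662) without the shallow library, and the call was also lost without S. cerevisiae replicate 1 and without any single S. paradoxus replicate (0.0107 to 0.293 over the alternatives). The contrast against the other stages passed in both fits, at -3.55 ± 0.772 (adjusted p = 0.0102) and -3.62 (adjusted p = 0.00690). PGK1, phosphoglycerate kinase, was named after its values were seen. It was at 7346, 9810.2 and 2961 CPM in S. cerevisiae and 1553, 2516 and 991 CPM in S. paradoxus, with no call at M1M2 (adjusted p = 0.0912 with and 0.372 without the shallow library) but a contrast against the other stages of -3.37 ± 0.755 (adjusted p = 0.0122), and of -2.92 (adjusted p = 0.0311) without the shallow library.

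HXT2, a glucose transporter made when glucose is low, was lower in S. paradoxus in both fits. It was at 273, 479 and 253 CPM in S. cerevisiae and 30.3, 30.4 and 38.2 CPM in S. paradoxus, and the lowest S. cerevisiae value was far above the highest S. paradoxus value. The difference was -3.24 ± 0.718 (adjusted p = 0.00457) with and -2.97 ± 0.712 (adjusted p = 0.0150) without the shallow library. It passed in 12 of 15 alternatives (4.96e-05 to 0.0869) and lost the call without S. paradoxus replicate 1 or 2. The contrast against the other stages was -3.68 ± 0.802 (adjusted p = 0.0102) and -3.33 without the shallow library (adjusted p = 0.0186). In the hexose transport and invertase list 1 of 12 genes passed as lower and 1 as higher in both fits, with a median of -0.75 with and -0.35 without the shallow library. The higher gene was MPH2, described below.

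Of 9 genes of the tricarboxylic acid cycle list, MDH1, PDH1 and FUM1 passed as lower in S. paradoxus, and MDH1 and PDH1 also passed without the shallow library. MDH1, the mitochondrial malate dehydrogenase, was at 4088, 7098 and 2358 CPM in S. cerevisiae and 307, 789 and 759.8 CPM in S. paradoxus, with no overlap. Its difference was -2.85 ± 0.621 (adjusted p = 0.00413) with and -2.36 ± 0.608 (adjusted p = 0.0282) without the shallow library, and it was lost without S. paradoxus replicate 1 (5.41e-06 to 0.144 over the alternatives). PDH1 is in this list but encodes the 2-methylcitrate dehydratase of propionate breakdown, not an enzyme of the cycle. It was at 2911, 8135 and 4450.5 CPM in S. cerevisiae and 507, 603 and 439.5 CPM in S. paradoxus. All S. cerevisiae values lay above all S. paradoxus values, and the difference was -3.31 ± 0.639 (adjusted p = 0.00206) with and -2.80 ± 0.636 (adjusted p = 0.0104) without the shallow library. PDH1 passed in 14 of 15 alternatives (3.38e-05 to 0.108). FUM1, fumarase, was at 5623, 18823 and 3717 CPM in S. cerevisiae, highest in the shallow library, and 1606, 1708 and 1671 CPM in S. paradoxus, and its adjusted p moved from 0.00514 to 0.230 without that library.

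Other energy genes passed only with the shallow library. Of 19 respiratory chain and ATP synthase genes, COX5A, QCR2 and ATP1 were lower in S. paradoxus with it and none without it, where the list median was -0.97 against -1.04 with it. COX5A, a subunit of cytochrome c oxidase, was at 944, 9651 and 465 CPM in S. cerevisiae and 101, 194 and 376 CPM in S. paradoxus. Its adjusted p was 0.00262 with and 0.381 without the shallow library, whose value was more than 10 times that of replicate 1. ATP1, the alpha subunit of the ATP synthase, was more even, at 4964, 6141 and 5281 CPM in S. cerevisiae and 858, 1815 and 1495 CPM in S. paradoxus with no overlap (adjusted p = 0.0423 with and 0.135 without). Of 13 genes of acetate use and gluconeogenesis, 3 were lower with the shallow library (MLS1, ACH1 and YAT1) and 0 without it, and no member had a positive difference without it. MLS1, malate synthase of the glyoxylate cycle, was at 13969, 19700.0 and 13024 CPM in S. cerevisiae and 2826, 5063 and 2559 CPM in S. paradoxus, with no overlap (-2.16 ± 0.589, adjusted p = 0.0303 with and 0.135 without). Of 22 stress and reserve carbohydrate genes GPH1, GSY2 and HOR7 were lower with the shallow library and none without it. HSP12, a small stress protein, was at 3061, 17387 and 6681 CPM in S. cerevisiae and 15068, 5206 and 15932 CPM in S. paradoxus and did not pass (adjusted p = 0.947 with and 0.756 without the shallow library).

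In nitrogen use, 3 of 24 genes were lower in S. paradoxus with the shallow library (CPS1, GDH3 and CAR2) and CPS1 alone without it. CPS1 encodes the vacuolar carboxypeptidase S, which frees amino acids from peptides. It was at 1824, 79.8 and 1009 CPM in S. cerevisiae and 119, 172 and 67.0 CPM in S. paradoxus. Here the shallow library, on 1 count, was the low value of its group, and the other S. cerevisiae libraries lay above all S. paradoxus ones. The difference was -3.09 ± 0.821 (adjusted p = 0.0254) with and -3.55 ± 0.815 (adjusted p = 0.0107) without the shallow library, with 0.00144 to 0.194 over the alternatives, and the call was lost without S. cerevisiae replicate 1 and without any single S. paradoxus replicate. Its contrast against the other stages was -4.22 ± 0.940 (adjusted p = 0.0122) with and -4.62 (adjusted p = 0.00394) without the shallow library.

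The same contrast passed in both fits for PUT1 (proline oxidase), MEP2 (ammonium permease), DIP5 (amino acid permease), CAR1 (arginase) and PHM7, none of which passed at M1M2 alone and all of which were named after their values were seen. CAR1 differed by -0.77 at M1M2 (adjusted p = 0.781), beside 3.27 at T0 and 2.98 at M1. PHM7 differed by -1.58 at M1M2 (adjusted p = 0.191), beside 3.20 at T0 and 3.97 at M1. MEP2 was at 714, 479 and 303 CPM in S. cerevisiae and 55.9, 248 and 27.0 CPM in S. paradoxus, a difference of -2.18 ± 0.864 (adjusted p = 0.204), beside 6.24 at M1. The contrast of MEP2 was -4.06 ± 1.02 (adjusted p = 0.0278). PUT1 was at 379, 239 and 322 CPM and 46.4, 112 and 125 CPM, a difference of -1.78 ± 0.902 beside 3.68 at T0, with a contrast of -4.14 ± 1.07 (adjusted p = 0.0353). For MEP2, PUT1, CAR1 and PHM7 the sign of the difference turned between an earlier stage and M1M2. PUT1, MEP2, DIP5, CAR1, PHM7, CPS1, HXT2, CDC19, ENO1 and PGK1 make up the 10 genes that passed the contrast in both fits.

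Among genes of translation, TEF4 kept its call in both fits and the others did not. TEF4 encodes the gamma subunit of elongation factor 1B and hosts the small nucleolar RNA snR38, which the table counts as a feature of its own, with 0 counts in all 6 libraries at M1M2. It was at 528, 6619.9 and 355 CPM in S. cerevisiae and 9.48, 88.9 and 44.7 CPM in S. paradoxus. The shallow library was more than 10 times above the others, which still lay above all S. paradoxus values. The difference was -5.64 ± 0.973 (adjusted p = 4.09e-04) with and -3.19 ± 0.819 (adjusted p = 0.0282) without the shallow library, and it passed in 14 of 15 alternatives (1.29e-07 to 0.104). HYP2, the translation factor eIF5A with a close copy in ANB1, was at 4328, 33578 and 2327 CPM and 913, 946 and 741 CPM, and its difference went from -3.94 ± 0.663 (adjusted p = 4.09e-04) to -1.92 ± 0.544 (adjusted p = 0.0642) without the shallow library.

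Of 69 ribosomal protein genes, 5 were lower in S. paradoxus with the shallow library and 0 without it, and the list's median moved from -0.86 to -0.40. RPS20, a protein of the small ribosomal subunit, was at 205, 2233 and 172 CPM in S. cerevisiae and 9.48, 73.7 and 91.3 CPM in S. paradoxus (adjusted p = 0.0323 with and 0.748 without). RPL2B and RPS1B, which have near-identical copies in RPL2A and RPS1A, also passed only with the shallow library, as did HHF2, a gene of histone H4 with a copy in HHF1. In each of these 4 genes the shallow library held the highest value of the 6, from 2233 CPM for RPS20 to 6619.9 CPM for HHF2. Of 65 genes of ribosome biogenesis MAK5, an RNA helicase, passed with the shallow library and none without it.

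In amino acid synthesis LYS20, the homocitrate synthase of lysine synthesis, passed in both fits. It was at 1254, 558 and 367 CPM in S. cerevisiae and 0.948, 50.4 and 40.04 CPM in S. paradoxus, with no overlap. The difference was -4.60 ± 1.00 (adjusted p = 0.00413) with and -4.72 ± 1.04 (adjusted p = 0.00776) without the shallow library, and the call was lost without S. paradoxus replicate 1 (8.92e-06 to 0.104 over the alternatives). LYS20 has a close copy in LYS21, so its reads may be shared. ARO1, of the shikimate pathway, was lower only with the shallow library (adjusted p = 0.0431 with and 0.992 without).

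Sterol genes held 1 higher and 1 lower call of 18 in both fits. SUT1, a transcription factor of sterol uptake, was at 3.01, 159.5 and 4.74 CPM in S. cerevisiae and 145, 139.7 and 598 CPM in S. paradoxus. The shallow library, on 2 counts, lay within the S. paradoxus range, and the other S. cerevisiae libraries were near 0. The difference was 5.42 ± 1.47 (adjusted p = 0.0297) with and 6.30 ± 1.33 (adjusted p = 0.00719) without the shallow library. It was lost without S. cerevisiae replicate 1 or 3 and without S. paradoxus replicate 1 or 3 (0.00103 to 0.274 over the alternatives). ERG3, the C-5 sterol desaturase, was at 1064, 0 and 571 CPM in S. cerevisiae and 0.474, 68.9 and 35.4 CPM in S. paradoxus. The shallow library had no ERG3 count, and the other S. cerevisiae libraries lay above all S. paradoxus ones. Its difference was -4.07 ± 1.16 (adjusted p = 0.0404) with and -4.53 ± 1.17 (adjusted p = 0.0282) without the shallow library, and it was lost without S. cerevisiae replicate 1 and without any single S. paradoxus replicate (0.00837 to 0.243).

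Of 16 metal uptake genes SIT1, FET3 and ISU1 (a scaffold of iron-sulfur cluster assembly) passed as lower with the shallow library and 0 without it, with list medians of -1.15 and -1.0. SIT1, a siderophore transporter, was at 1345, 2712 and 643 CPM in S. cerevisiae and 163, 177 and 81.9 CPM in S. paradoxus, with no overlap (adjusted p = 0.00986 with and 0.0630 without). FET3, the multicopper oxidase of iron uptake, was at 402, 718 and 130.0 CPM and 32.2, 80.3 and 44.7 CPM, again with no overlap (adjusted p = 0.0109 with and 0.0600 without). The log2 difference of SIT1 was -3.43 ± 0.817 and that of FET3 -2.83 ± 0.683, and without the shallow library the values were -2.80 and -2.33. Lists of DNA replication (31 genes tested), sulfur and methionine (21), autophagy (16), proteasome (18) and the vegetative cell wall (20) held no call in either fit. A list without a call is not shown to be alike in the species.

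The remaining lower genes with the largest differences rested on the shallow library. URA3, which makes orotidine-5'-phosphate decarboxylase of uracil synthesis, was at 229, 12761 and 117 CPM in S. cerevisiae and 3.79, 96.0 and 49.4 CPM in S. paradoxus. The difference was -6.41 ± 1.3 (adjusted p = 0.00309) with the shallow library and -1.78 ± 1.09 (adjusted p = 0.820) without it. YER152W-A, SQT1, MAK5, PEX14, YNL092W, CPP1 and HEM1 showed the same layout, with 2792 to 11565 CPM in the shallow library. In these 7 genes the adjusted p without it was between 0.353 and 0.992.

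The largest differences of all were in genes with no or almost no S. cerevisiae counts. YPL257W, of unknown function, had 0 counts in all 3 S. cerevisiae libraries and stood at 217, 281 and 221 CPM in S. paradoxus, which is at least 363-fold higher against a floor of 3 counts over the S. cerevisiae group (adjusted p = 0.00347 with and 0.00756 without the shallow library). It passed in all 15 alternatives (6.61e-08 to 0.0312). MPH2, an alpha-glucoside transporter with a near-identical copy in MPH3, had 0 counts in S. cerevisiae and stood at 65.9, 26.1 and 190.0 CPM in S. paradoxus, at least 112-fold higher (adjusted p = 0.0121 with and 0.0200 without). MPH2 lost its call without S. cerevisiae replicate 1 or 3 and without S. paradoxus replicate 3 (2.24e-04 to 0.0954). YNL034W, an uncharacterised gene with a similar neighbour in YNL033W, was at 11.0, 79.8 and 0 CPM in S. cerevisiae and 448, 298 and 1328 CPM in S. paradoxus (6.56 ± 1.24, adjusted p = 0.00175). Without the shallow library YNL034W differed by 6.89 ± 1.23 (adjusted p = 0.00159, 4.73e-07 to 0.0869 over the alternatives). YNL033W had 0 counts in the 12 S. cerevisiae libraries and 2426 in those of S. paradoxus. In the hybrid at M1M2 it had 1 count from the S. cerevisiae allele and 2274 from the S. paradoxus allele. Whether YPL257W, MPH2 and YNL034W differ in RNA or in how reads were assigned was not tested.

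BOP2, CBC2 and BTN2 complete the higher genes. BOP2 was at 322, 79.8 and 269 CPM in S. cerevisiae and 2299.7, 1609.8 and 2259 CPM in S. paradoxus, and the S. paradoxus libraries were close together and above every S. cerevisiae library. The difference was 3.03 ± 0.602 (adjusted p = 0.00262) with and 2.83 ± 0.654 (adjusted p = 0.0107) without the shallow library, and BOP2 passed in 14 of 15 alternatives (1.29e-07 to 0.108). CBC2, a subunit of the nuclear cap-binding complex, was at 131, 239 and 131 CPM and 812, 445 and 1169.5 CPM. Its difference was 2.44 ± 0.666 (adjusted p = 0.0303) with and 2.67 ± 0.707 (adjusted p = 0.0370) without the shallow library, and it was lost without S. cerevisiae replicate 1 or 3 and without S. paradoxus replicate 1 or 3 (6.09e-04 to 0.195). BTN2, which sorts misfolded proteins, was at 80.9, 79.8 and 19.0 CPM and 1386, 1273 and 462 CPM, with no overlap. The call of BTN2 (4.28 ± 1.25, adjusted p = 0.0437) was lost without any single library of the 6, and without the shallow library the adjusted p was 0.135 (0.00459 to 0.209).

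Of the 83 genes, 29 had the same sign of difference at all 4 stages. Among these were YPL257W, MPH2, YNL034W, BOP2, AQY1, PDH1, TEF4 and LYS20. The share over all genes tested is not given here, so the 29 are not read as a trait of the called genes. The difference of BOP2 at T0 was 4.05 ± 0.617 (adjusted p = 1.70e-05), and that of YNL034W 4.21 ± 0.963 (adjusted p = 0.00396). CDC19, ENO1, GPH1 and GSY2 were instead higher in S. paradoxus at T0, by 3.27, 3.61, 3.12 and 3.63.

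The hybrid carries both alleles in the same cells, so its 4 libraries at M1M2 give an allele difference measured apart from the parental cultures. Of 2974 genes tested there 6 passed (0.202%), 3 higher in the S. paradoxus allele (0.101%) and 3 lower (0.101%), and 233 had an unadjusted p under 0.05. The allele difference had the sign of the parental difference in 59 of the 83 genes, in 28 of the 35 called without the shallow library, and in 63.0% of all 2974 genes. Across these genes, which are not independent replicates, the parental and allele differences had a Pearson correlation of 0.373 and a Spearman correlation of 0.351. Of the 83 genes MPH2, YNL034W, AQY1 and PDH1 passed in the hybrid with the same sign, and 0 passed with the opposite sign.

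AQY1 was at 959, 4413, 1236 and 2095 CPM from the S. cerevisiae allele and 24.5, 193, 179.6 and 77.2 CPM from the S. paradoxus allele in hybrid libraries 1 to 4. The S. cerevisiae allele was the higher in each library, by a log2 difference of -4.36 ± 0.830 (adjusted p = 0.00211). PDH1 was at 4297, 1894, 2644 and 3319 CPM and 1158, 75.7, 337 and 468 CPM, again higher from the S. cerevisiae allele in every library (-3.05 ± 0.439, adjusted p = 1.17e-05). YNL034W was at 225, 0, 163 and 119 CPM from the S. cerevisiae allele and 2659, 1288, 1578 and 1464 CPM from the S. paradoxus allele (4.35 ± 0.879, adjusted p = 0.00417). MPH2 had 0 counts from the S. cerevisiae allele in all 4 libraries and 492, 267, 141 and 190.4 CPM from the S. paradoxus allele (adjusted p = 0.00211). BOP2 was higher from the S. paradoxus allele in 4 of 4 libraries, at 814, 281, 341 and 806 CPM and 2525, 2511, 2488 and 3323 CPM, and did not pass (2.42 ± 0.670, adjusted p = 0.117).

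The medians of the sporulation lists were close to 0 between the alleles, while single members lay on both sides of 0. The median over the middle meiosis list was 0.07, over the prospore membrane list 0.11 and over the spore wall list -0.21, beside 0.01 over all genes tested, while the parental medians were 1.5, 1.56 and 1.27 with the shallow library. NDT80 was at 5255, 3621, 3441 and 2057 CPM from the S. cerevisiae allele and 6088, 5738, 4986 and 6984 CPM from the S. paradoxus allele, a difference of 0.79 ± 0.393 (adjusted p = 0.632), and the S. paradoxus allele was the higher in 4 of 4 libraries. SPS22 differed by 0.18 ± 0.330, SMK1 by -0.76 ± 0.555, SPO20 by 0.94 ± 0.459 and GAS4 by 0.89 ± 0.417, and none of the 4 passed. CDC19 had an allele difference of 0.55 ± 0.782, HXT2 of -1.28 ± 0.805 and CPS1 of -0.67 ± 0.937, also without a call. The parental and allele differences were not tested against each other.

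**Figure D5:**
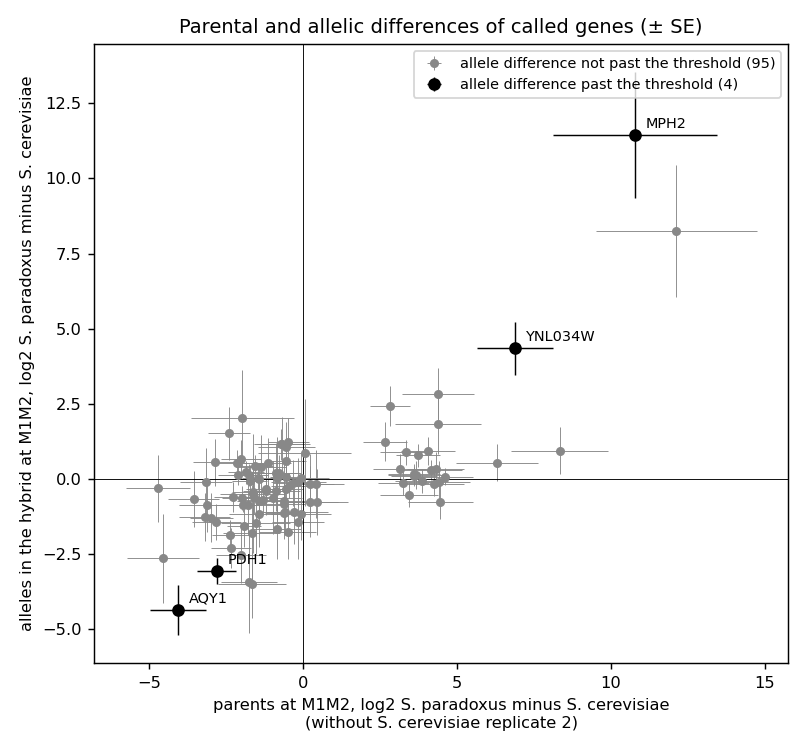
Parental log2 difference without the shallow library (x axis) against the allele difference in the hybrid (y axis), both S. paradoxus minus S. cerevisiae at M1M2 with standard errors, for the 99 genes called in either parental fit. The 4 genes past the threshold in the hybrid are labelled, and the group between 3 and 5 on the x axis, which holds the sporulation genes, lies mostly near 0 on the y axis.

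The 124 genes set apart could not be compared by the fit. Of them 65 were at 0 in all S. cerevisiae libraries only, 30 in all S. paradoxus libraries only and 29 in both species. SDH9 (YJL045W), a relative of the flavoprotein subunit of succinate dehydrogenase, had 2529, 4 and 1550 counts in the S. cerevisiae libraries at M1M2 and 0 in S. paradoxus, so that it was at least 1606-fold lower in S. paradoxus against the floor of 3 counts. NSP1 (YJL041W), a nuclear pore protein, had 1443, 2 and 844 counts and 0 in S. paradoxus, and MHP1 (YJL042W) had 1056, 1 and 301 counts and 0. ARO8 (YGL202W), an aromatic aminotransferase, had 782, 1 and 256 counts in S. cerevisiae and 0 in S. paradoxus. The bounds for NSP1, MHP1 and ARO8 were at least 900-fold, 534-fold and 409-fold lower.

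In the other direction KEX1 (YGL203C), a protease of the secretory pathway, had 0 counts in S. cerevisiae and 541, 564 and 404 in S. paradoxus, at least 426-fold higher. MCM6 (YGL201C), a subunit of the replicative helicase, had 0 and 624, 325 and 111 counts, at least 299-fold higher. KEX1, MCM6, GYP6 and NUP192 are the 4 names in the table that end in C, and all 4 had no S. cerevisiae count. They are neighbours of genes with no S. paradoxus count, since KEX1 and MCM6 lie close to ARO8 on chromosome VII and GYP6 and NUP192 lie beside SDH9, YJL043W, MHP1 and NSP1 on chromosome X. In the hybrid at M1M2 the S. cerevisiae allele of KEX1 and MCM6 and the S. paradoxus allele of SDH9, NSP1, MHP1 and ARO8 also had 0 counts. Over all 16 hybrid libraries these alleles did have counts, 111 for KEX1, 335 for MCM6, 375 for SDH9, 499 for NSP1, 198 for MHP1 and 644 for ARO8, against 2197 to 11220 from the other allele. Whether these genes differ in RNA or in how reads were assigned to features was not tested.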

How the data were processed

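Per the labels' protocols, mRNA of 40 samples of yeast cultures was purified, copied from poly-A primers and read on HiSeq lanes. The authors deposited raw counts per feature, in which a hybrid value is the sum of its alleles, and raw counts per allele; Bowtie 0.12.7 and DESeq 1.8.3 appear in the submitters' processing notes. The counting tool, its use of strand, the annotation and the build are not given in the sources used here. The deposited variance-stabilised tables were not used. Of 3463 features 246 name no gene; these took 0.392 to 4.95% of a library's counts and stayed out of all tests. The libraries held between 23453 and 7732384 counts in genes, and depth limits what could be detected.

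The main test was the two-sided quasi-likelihood F test of edgeR 4.0.16, with filterByExpr and TMM factors, on all 40 libraries in 12 groups of genotype and stage, which share an estimate of the spread (common coefficient of variation 0.868, TMM factors 0.535 to 1.33). Adjusted p-values are Benjamini-Hochberg values over all genes tested in a contrast, with a threshold of 0.05. The filter removed 43 genes. Alleles were fitted in the 16 hybrid libraries with the library as a block. CPM values use TMM-scaled library sizes, and list levels are means of log2 CPM with a prior count of 2. Lists are described by counts and medians. The floor for a group at 0 was 3 counts over the group and covers counting error only. The 15 alternatives were DESeq2 size factors, the DESeq2 1.42.0 Wald test, no filter, the 6 libraries alone, the 24 parental libraries alone, each of the 6 libraries left out, all libraries under 500000 counts left out, a replicate block, the rows at 0 kept, and a test against a log2 change of 1. The fit was tested on simulated data.

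Named genes are the 12 with the largest difference in each direction among those with an adjusted p under 0.05, a mean count of at least 50 and no overlap, up to 3 such members of each of 27 lists without the condition on overlap, NDT80, IME2, DMC1, HOP1, CLB1, CLB3, SMK1, AMA1, SPS22, DIT1 and HSP12 always, and the 6 genes set apart with the most counts. Every other gene named was chosen after its values were seen. The members, lists and rule were chosen with earlier results of these data known. Names of 2772 genes matched the R64 annotation of RefSeq, which also gave the promoters. The labels do not say that a replicate number marks a shared batch, so replicates were not paired in the main fit. At M1M2 the deviations of libraries with the same replicate number had correlations of -0.00475, -0.0624 and -0.0266 between the species. The value for replicate 2 involves the shallow library. The values of 1 gene called without the shallow library are not reported here.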

Additional observations from a re-analysis of the deposited data

Results flagged for a closer look

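In 12 named genes the species difference at M1M2 departed from the mean of the differences at T0, M1 and M2, by the edgeR test of that contrast. All 12 were relatively lower in S. paradoxus at M1M2. Such a departure can come from another stage as well as from M1M2. The log2 contrast was -4.22 for CPS1, -3.68 for HXT2, -3.62 for CDC19 and -3.55 for ENO1, and these 4 also passed without the shallow S. cerevisiae library, at -4.62, -3.33, -3.89 and -3.62. It was -8.89 for YER152W-A, -5.62 for URA3, -4.09 for GSY2, -3.61 for COX5A, -3.36 for HYP2, -3.24 for GPH1, -2.79 for GDH3 and -2.50 for QCR2. None of these 8 passed without the shallow library, where their contrasts ran from -4.20 for YER152W-A to -0.94 for URA3 and the adjusted p from 0.234 for GPH1 to 1.00 for URA3. The shallow library's part in them was not tested further.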

How the results depend on the processing

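At M1M2 the number of genes higher in S. paradoxus was 10 in the fit reported, 48 with DESeq2, 1 with the 6 libraries alone, 5 with the 24 parental libraries, 43 without libraries under 500000 counts, 21 with the rows at 0 kept and 5 in the test against a log2 change of 1, and it ran from 3 to 24 when a library was left out. The number lower was 73 in the fit reported, 124 with DESeq2, 0 with the 6 libraries alone, 38 with the 24 parental libraries, 27 without libraries under 500000 counts and 24 in the test against a log2 change of 1, and it ran from 3 to 112 when a library was left out. With a replicate block 10 genes were higher and 43 lower, and all 53 were among the 83. In the contrast against the other stages, 0 genes were higher with edgeR (269 at an unadjusted p under 0.05 in either direction), 17 with DESeq2 and 19 without libraries under 500000 counts, and 31 were lower, against 15 with DESeq2 size factors, 67 with DESeq2, 15 with the 24 parental libraries and 12 without libraries under 500000 counts. Leaving out a library gave 0 to 21 higher and 0 to 74 lower there. With the 4 hybrid libraries at M1M2 alone, 15 allele differences were higher and 22 lower, and leaving out a library gave 1 to 3 in each direction. The share of calls higher in S. paradoxus was 14% with DESeq2 size factors, 27.9% with DESeq2, 66.7% without S. paradoxus replicate 1 and 68.6% without the shallow library. The median of all genes shifted by 0.192 without S. paradoxus replicate 1 and by 0.194 without replicate 2. When a library was left out, the difference of DIT1 ran from -0.32 (without S. cerevisiae replicate 3) to 2.73, and was also negative without S. paradoxus replicate 3 (-0.23). That of AMA1 ran from -0.19 (without S. paradoxus replicate 3) to 0.637 and was -0.14 without S. cerevisiae replicate 1, and that of HOP1 ran from -0.12 (without the shallow library) to 1.2, with -0.10 without libraries under 500000 counts. None of these 3 genes passed in any of the alternatives. For the 59 named genes, 588 of 885 values under an alternative kept their direction and side of the threshold, 284 lost the threshold, 7 gained it and 6 turned sign. The cause of these changes was not tested.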
